A study of Mus musculus with 6 samples.

Results

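Type I interferon-stimulated genes were followed as a set of 37 listed genes in B16F10 melanoma tumors grown at 2 anatomical sites. Members were found by an exact match of their gene symbols, and all 37 were present among the 45777 genes of the deposited count matrix. B16F10 is a mouse melanoma cell line that grows in C57BL/6 hosts. RNA from 3 tumors grafted in the hind footpad and 3 tumors grafted in the flank skin was sequenced, to compare the transcriptomes of the same tumor cells at the 2 sites. The sample labels describe the hosts of both groups as Foxn1-/- mice of 8 weeks, which lack a functional thymus and most mature T cells. The study used grafts of this line in C57BL/6J and in Foxn1-null mice, without saying which host bore the tumors sequenced here. No tumor carried a genetic change or drug treatment in the labels. Each tumor gave 1 library, and how tumor cells were separated from host tissue is not given in the sources used here. The study implanted cells at both sites of a mouse at the same time and counted mice when it compared expression between the sites, so tumors of both sites may share mice, but the labels do not say which tumor came from which mouse. Both groups share the cell line. The p-values weigh a site difference only against the spread between these tumors, which the tests estimate for each gene with help from the other genes.

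Type I interferons are secreted when a cell senses foreign or misplaced nucleic acid, and they act on nearly all nucleated cells through the receptor chains IFNAR1 and IFNAR2. Signaling from the receptor brings STAT2 and IRF9 together in the complex ISGF3, which binds interferon-stimulated response elements in the promoters of the genes described here. Their products detect viral RNA, block viral translation and replication, modify proteins with ISG15 and tune the response itself, and tumor, stromal and immune cells can all express them.

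The response element can be seen in the promoters of some members. Promoter sequence was not used to list them, but the list holds genes of the kind that ISGF3 binds through this element. A high share of matches is therefore not an independent result. The printed promoters are examples that hold a match. None belongs to a member whose tumors were without overlap between the sites. Each stretch is 80 bases of RefSeq sequence on GRCm38.p6, written 5′ to 3′ on the strand of its gene, with matches to the core of the element in capitals. The core searched was GAAA, 2 bases of any kind and GAAA again, which reads TTTC, 2 bases and TTTC on the other strand, and matches that overlap were counted separately. The Ifit1 stretch is chr19:34640769-34640848 on the plus strand, the Ifit3 stretch chr19:34583359-34583438 on the plus strand, the Isg15 stretch chr4:156200839-156200918 on the minus strand, the Oas1a stretch chr5:120907526-120907605 on the minus strand and the Rsad2 stretch chr12:26456518-26456597 on the minus strand.
Ifit1: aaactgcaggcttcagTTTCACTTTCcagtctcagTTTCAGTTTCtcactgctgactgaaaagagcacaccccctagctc
Ifit3: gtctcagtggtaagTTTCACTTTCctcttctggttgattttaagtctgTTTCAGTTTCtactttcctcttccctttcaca
Isg15: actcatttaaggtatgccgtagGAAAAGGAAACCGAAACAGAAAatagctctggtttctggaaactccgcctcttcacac
Oas1a: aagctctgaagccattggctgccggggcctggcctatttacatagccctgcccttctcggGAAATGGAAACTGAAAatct
Rsad2: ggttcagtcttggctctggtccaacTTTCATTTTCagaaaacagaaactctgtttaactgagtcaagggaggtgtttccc

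Ifit1 and Ifit3 each held 2 matches, Oas1a 2 that overlap, Isg15 3 that overlap and Rsad2 1. The Ifit3b stretch at chr19:34607755-34607834 matched that of Ifit3 at 80 of 80 bases. RefSeq promoter windows, from 250 bases before to 50 bases after a gene's start, were at hand for 28 of the 37 members. Of these, 12 (42.9%) held a match on either strand, against 3.99% of all 27025 genes with a window. When only the bases before the start were searched, 9 members held a match, against 3.46% of all genes. The windows of Ifit2, Herc6, Cmpk2 and Ifi35 held none, which says only that these letters are not in these windows.

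Libraries held 46529649 to 66364366 reads assigned to genes. Counts were set to CPM (a gene's reads relative to the reads of its library) with TMM scaling, and 17210 genes had enough reads to be tested, all 37 members among them. Members were well covered, with at least 28 reads in every tumor, and 3 reads equalled 0.0437 to 0.0673 CPM. Replicates are named by their label numbers, footpad 1 to 3 and flank 1 to 3. All 8 melanocyte markers examined, among them Tyr, Dct and Pmel, were tested, and their summed level ranged from 10060 to 18621 CPM in the footpad and from 14808 to 25502 CPM in the flank. Fibroblast markers, among them Col1a1, Col1a2 and Col3a1, summed to 2686 to 3692 CPM in the footpad tumors against 77.8 to 404 CPM in the flank tumors. The study describes high collagen gene expression in melanoma cells themselves, so this sum alone does not show other cells. The markers of the list that are not collagens, Dcn, Lum, Pdgfra and Fap, were also higher in the footpad, without overlap. Their folds were 11.8, 7.33, 7.44 and 7.12, with adjusted p of 0.0353, 0.0271, 0.0848 and 0.0381 in edgeR. Hemoglobin genes drew 0.186% to 3.39% of the reads of a library, so the material held RNA of other cells too. In bulk RNA, fewer cells of a type and less RNA per cell cannot be told apart.

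None of the interferon-stimulated genes passed the test of a difference between the sites. With edgeR's quasi-likelihood test, 0 of 37 members passed an adjusted p of 0.05 together with a fold of 2 or more, whereas 3.76% of all tested genes did. At an adjusted p of 0.05 alone the count was again 0, against 4.87% of all tested genes. At an unadjusted p under 0.05, 4 members were lower in the footpad, Ifit2, Herc6, Ifi35 and Ifit3, and none was higher. That is 10.8% of the members, against 25.3% of all tested genes in either direction and 10.5% in the lower direction. DESeq2 passed 0 members with a fold of 2 or more, against 8.75% of all tested genes, and 2 members, Ifit2 and Herc6, at an adjusted p of 0.05 alone, against 15.9%. The median fitted difference of the members in edgeR was -0.23 on the log2 scale, footpad minus flank, beside a median of -0.004 over all tested genes. Of the members, 13 had a positive and 24 a negative difference, and only Oas3, Zbp1, Dhx58 and Ifit3 were 2-fold or more apart.

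**Figure D1:**
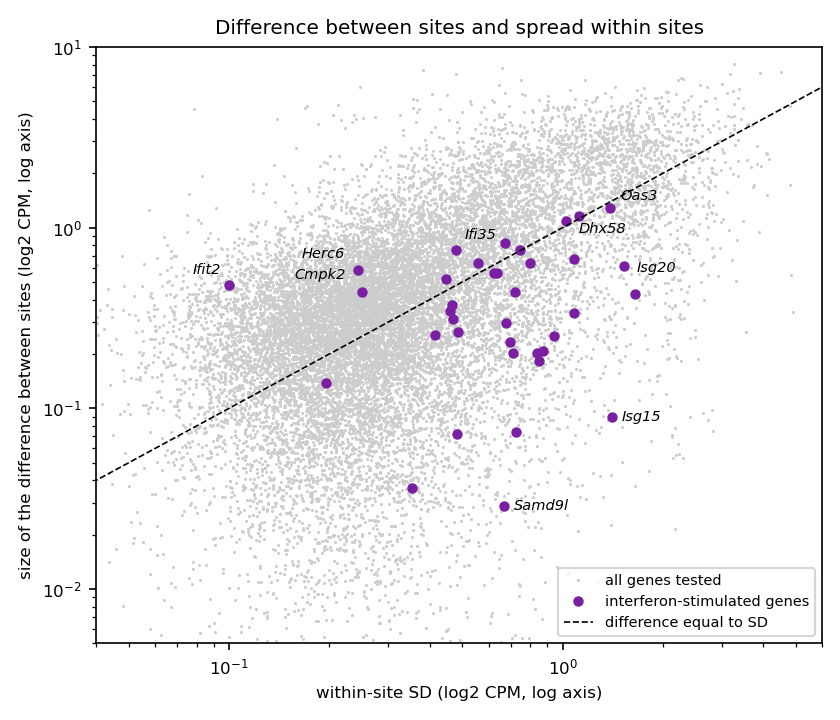
Absolute gap in mean log2 CPM between the sites for each gene (vertical) against its spread among tumors of one site (horizontal, within-site SD, log2 scale). Both axes are logarithmic. Grey points are all tested genes apart from 149 outside the axes, coloured points are the 37 members, and the line marks a difference equal to the SD. Most members lie to the right of the bulk of genes and below the line.

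Tumors of one site differed more in the members than in the median gene. The median member had a within-site SD of 0.68 on the log2 scale, against 0.30 for all tested genes, while its absolute site difference of 0.37 was close to the 0.34 of all tested genes. Site differences set against the SD are gaps between the sites' mean log2 CPM, not the fitted edgeR differences given elsewhere. The 2 measures had opposite signs in Isg15 (gap 0.09, fit -0.12), Xaf1 (0.20, -0.13), Mx2 (0.07, -0.07) and Parp12 (0.04, -0.02). The site difference was smaller than the within-site SD in 27 of 37 members (73.0%), against 44.2% of all tested genes. A single tumor carried much of this spread, since without flank replicate 1 the median SD was 0.36 for members and 0.24 for all tested genes, and 18 members (48.6%) had a difference below their SD, against 37.7%. The median ratio of the difference to the SD then went from 0.62 to 1.05 in members and from 1.16 to 1.38 in all tested genes. Site accounted for a median of 12.6% of a member's variance, against 33.5% over all tested genes. Flank tumors carried more of the spread, with flank replicate 1 the highest of them in 37 of 37 members. From the lowest to the highest tumor, the median member spanned 2.84-fold in the flank and 1.85-fold in the footpad, where all tested genes had medians of 1.47-fold and 1.39-fold. The flank range was the larger in 31 of 37 members, against 9468 of all 17210 tested genes. These values describe the set and were not tested over it.

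**Figure D2:**
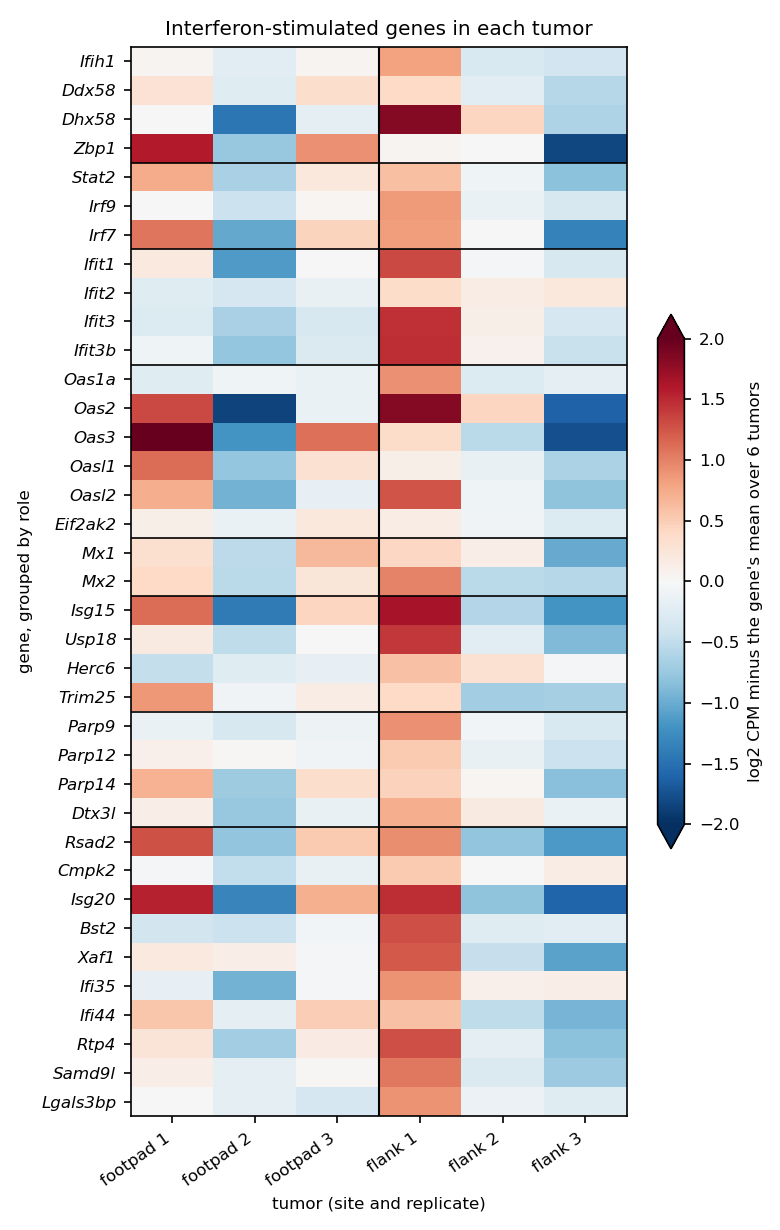
Level of each of the 37 members (rows, grouped by role) in each of the 6 tumors (columns), as the difference from the gene's mean over all tumors on the log2 CPM scale. Flank replicate 1 is above the mean in 37 of 37 rows, footpad replicate 2 and flank replicate 3 are mostly below it.

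The spread ran the same way in nearly all members. Flank replicate 1 was the highest of the flank tumors in 37 of 37 members, against 38.9% of all tested genes. It was the highest of all 6 tumors in 26 members, followed by footpad replicate 1 in 9 and footpad replicate 3 in 2. Footpad replicate 2 was the lowest of the footpad tumors in 32 of 37 members, against 37.3% of all tested genes, and flank replicate 3 was the lowest of the flank tumors in 31, against 31.0%. Relative to each gene's mean over the tumors, the median member stood at 0.89 (log2) in flank replicate 1, at 0.19, -0.54 and 0.02 in footpad replicates 1 to 3, and at -0.12 and -0.61 in flank replicates 2 and 3. The highest and the lowest tumor of the median member both came from the flank.

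Among the RNA and DNA sensors, none passed the test and the signs were mixed. Ddx58, which encodes the RNA helicase RIG-I, was measured in the footpad at 82.0, 56.6 and 85.5 CPM and in the flank at 88.6, 58.1 and 45.5 CPM. The tumors of the sites overlapped, and the difference was 0.22 ± 0.27 (log2, SE), with an adjusted p of 0.640 in edgeR. Dhx58, which encodes the related helicase LGP2, had 4.78, 1.76 and 4.20 CPM in the footpad and 17.1, 6.43 and 3.13 CPM in the flank. Flank replicate 1 stood far above the other tumors, and the difference of -1.31 ± 0.64 had an adjusted p of 0.245 in edgeR. Zbp1, a sensor of left-handed nucleic acid that can start cell death, leaned the other way, with 4.73, 0.933 and 2.98 CPM in the footpad and 1.64, 1.57 and 0.447 CPM in the flank. Its highest tumor was in the footpad, and its difference of 1.24 ± 0.68 had an adjusted p of 0.298 in edgeR. Ifih1, encoding the helicase MDA5, differed by -0.17 ± 0.31.

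The transcription factors of the response passed no test either. Irf9, the DNA-binding subunit of ISGF3, had 30.8, 22.6 and 31.3 CPM in the footpad and 55.5, 27.8 and 24.5 CPM in the flank, a difference of -0.35 ± 0.32 with an adjusted p of 0.526 in edgeR. Only flank replicate 1 lay above the footpad range. Stat2 differed by 0.20 ± 0.44 and Irf7, which amplifies interferon production, by 0.32 ± 0.63. The Irf7 level spanned 4.26-fold among footpad tumors and 4.56-fold among flank tumors.

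The IFIT family, whose proteins bind foreign RNA and block its translation, was the only role group with every member lower in the footpad on average. The median difference of the 4 genes was -0.84, and none passed the adjusted test. Without flank replicate 1 the median was -0.26, with Ifit1 at -0.05, Ifit2 at -0.43, Ifit3 at -0.32 and Ifit3b at -0.20. Ifit2 gave the clearest separation of the sites, at 55.5, 51.6 and 58.7 CPM in the footpad and 83.8, 72.6 and 75.5 CPM in the flank. Its tumors did not overlap, and the site difference was 4.84 times the within-site SD, the highest ratio of the 37 members. At -0.48 ± 0.12, a 1.40-fold lower mean in the footpad, it had an unadjusted p of 0.00488 and an adjusted p of 0.0649 in edgeR, and an adjusted p of 0.00756 in DESeq2. Ifit3 showed a larger fold with less agreement between tumors, at 21.96, 16.9 and 21.2 CPM in the footpad and 72.5, 28.7 and 21.0 CPM in the flank. Flank replicate 3 lay inside the footpad range, and the difference of -1.03 ± 0.43 had an adjusted p of 0.190 in edgeR. Without flank replicate 1 its adjusted p was 0.3603. Ifit3b followed the same order, at 11.1, 6.94 and 9.69 CPM in the footpad and 32.96, 12.6 and 8.69 CPM in the flank, with a difference of -0.97 ± 0.48 and an adjusted p of 0.251 in edgeR. The pair are near copies, with 31.7% of the 100-base windows of the Ifit3 transcript also found in Ifit3b, and how reads shared by both were assigned is not given in the sources used here, so their separate levels are uncertain. Ifit1 differed by -0.72 ± 0.49.

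**Figure D3:**
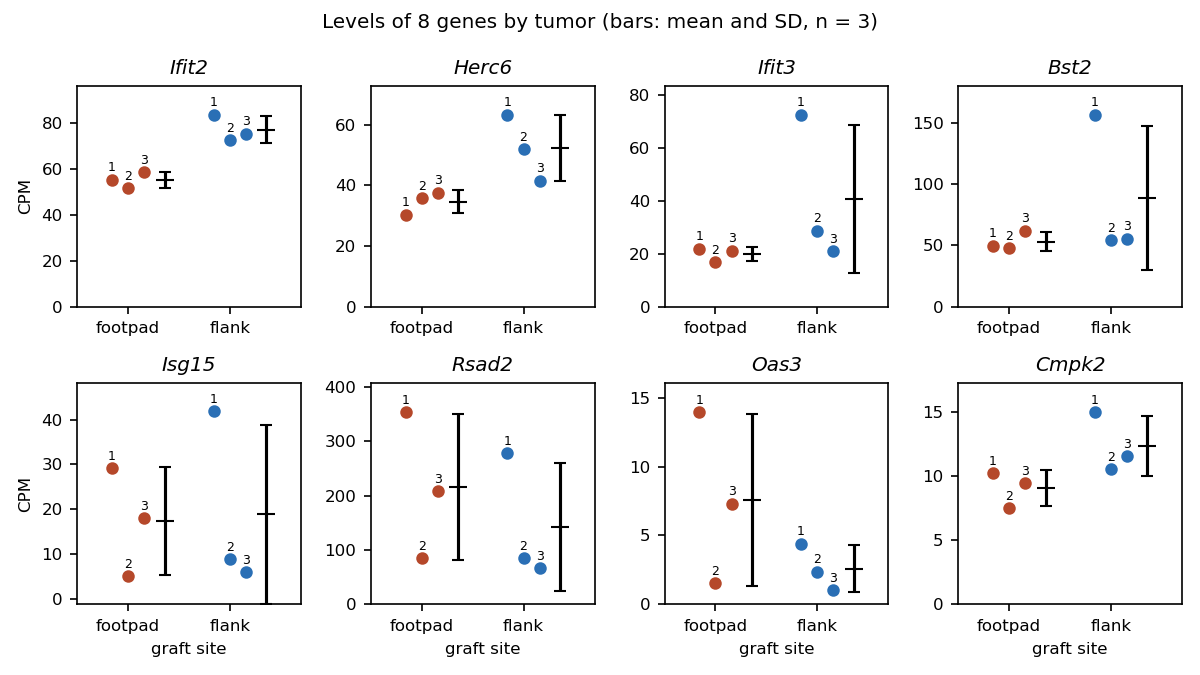
Level of 8 members in each tumor (CPM, each panel with its own axis), with footpad and flank side by side, points for tumors and the line with bar for the mean and SD of 3 tumors. Ifit2, Herc6 and Cmpk2 separate the sites, Bst2 and Ifit3 are set apart by flank replicate 1, and Isg15, Rsad2 and Oas3 spread widely within a site.

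The oligoadenylate synthetases, which make the messenger that activates RNase L, and the kinase PKR had 3 positive and 3 negative differences. Oas3 had the largest positive difference of all members, 1.55 ± 0.80, with an adjusted p of 0.268 in edgeR. Its levels were 14.0, 1.501 and 7.31 CPM in the footpad and 4.40, 2.36 and 1.01 CPM in the flank, so that footpad replicate 2 lay inside the flank range and footpad tumors spanned 9.31-fold. Oasl1, a related protein without synthetase activity, was measured at 10.8, 2.93 and 6.20 CPM in the footpad and at 5.43, 4.53 and 3.21 CPM in the flank, a difference of 0.60 ± 0.46 with an adjusted p of 0.453 in edgeR. Its footpad tumors lay on both sides of the flank tumors. Eif2ak2, encoding PKR, which halts translation on double-stranded RNA, was among the steadiest members, at 71.5, 59.8 and 76.2 CPM in the footpad and 72.4, 62.4 and 54.2 CPM in the flank. The difference was 0.14 ± 0.16, with an adjusted p of 0.628 in edgeR. Oas1a differed by -0.42 ± 0.31, Oas2 by -0.51 ± 0.95 and Oasl2 by -0.35 ± 0.60. Oas1a shares 40.1% of its 100-base transcript windows with Oas1g, so its level is uncertain in the same way.

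Transcripts of the MX GTPases, a family whose antiviral forms trap viral ribonucleoprotein, were at a few CPM in each tumor. Whether they gave active protein here was not measured. Mx2 had 3.95, 2.05 and 3.55 CPM in the footpad and 5.96, 2.05 and 2.01 CPM in the flank, a difference of -0.07 ± 0.50 with an adjusted p of 0.943 in edgeR. Mx1 differed by 0.26 ± 0.47. Neither site mean stood outside the range of the other site.

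Isg15 and the enzymes that attach or remove the ISG15 protein included members with wide spread and members with little. Isg15 was measured at 29.2, 5.01 and 18.0 CPM in the footpad and at 41.8, 8.91 and 5.88 CPM in the flank. Footpad means of 17.4 ± 12.1 (SD, n = 3) and flank means of 18.9 ± 19.9 CPM were within these SDs of each other, while tumors of one site differed 5.83-fold and 7.11-fold. The difference was -0.12 ± 0.82, with an adjusted p of 0.944 in edgeR, and it was 1.23 without flank replicate 1, with an adjusted p of 0.313. Herc6, the ligase that attaches ISG15 in mice, separated the sites as Ifit2 did, at 30.3, 35.7 and 37.6 CPM in the footpad and 63.3, 52.0 and 41.6 CPM in the flank. The sites did not overlap, and the difference of -0.60 ± 0.18 had an adjusted p of 0.0963 in edgeR and 0.0313 in DESeq2. Trim25, a ubiquitin ligase that activates RIG-I, had 22.03, 11.5 and 13.4 CPM in the footpad and 15.8, 7.47 and 7.59 CPM in the flank, a difference of 0.61 ± 0.37 with an adjusted p of 0.350 in edgeR. Usp18, which removes ISG15 and restrains the receptor, differed by -0.51 ± 0.54.

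The PARP group comprises poly-ADP-ribose polymerase family members and Dtx3l, the ubiquitin ligase that pairs with PARP9. Parp12 had nearly equal means, with 80.8, 76.5 and 71.7 CPM in the footpad and 109, 67.9 and 55.8 CPM in the flank. Its difference was -0.02 ± 0.24, with an adjusted p of 0.970 in edgeR, and flank tumors lay on both sides of the narrow footpad range. Parp9, Parp14 and Dtx3l differed by -0.47 ± 0.30, 0.25 ± 0.41 and -0.52 ± 0.29.

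Other effectors included the most abundant members. Per transcript length, in FPKM (fragments scaled to transcript length and library size), Bst2 had the highest mean level of the members, at 58.6 in the footpad and 94.9 in the flank, and Rsad2 followed at 49.3 and 32.4. Rsad2 encodes viperin, which makes a chain-terminating nucleotide, and was measured at 354, 84.2 and 209 CPM in the footpad and at 279, 84.3 and 65.7 CPM in the flank. Footpad tumors spanned 4.21-fold and flank tumors 4.24-fold, and the difference of 0.59 ± 0.65 had an adjusted p of 0.603 in edgeR. Bst2, encoding tetherin, which holds budding virus at the cell surface, had 49.7, 47.7 and 62.0 CPM in the footpad and 157, 54.0 and 55.6 CPM in the flank. Among its tumors, 5 lay close together, with flank replicate 1 far above them, and the difference of -0.74 ± 0.41, with an adjusted p of 0.298 in edgeR, was -0.05 without that tumor.

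Cmpk2, the nucleotide kinase encoded head to head with Rsad2 at a distance of 12665 bases, did not share its spread. It had 10.3, 7.48 and 9.47 CPM in the footpad and 15.0, 10.5 and 11.6 CPM in the flank, without overlap, and a difference of -0.45 ± 0.22 with an adjusted p of 0.248 in edgeR. Ifi35, a leucine zipper protein, also separated the sites, at 15.9, 9.19 and 17.5 CPM in the footpad and 33.3, 19.1 and 19.5 CPM in the flank, with a difference of -0.75 ± 0.31 and an adjusted p of 0.186 in edgeR. Samd9l, which restrains growth and translation, had the smallest gap in mean log2 CPM relative to its spread, 0.0433 of the within-site SD. Its levels were 93.6, 74.6 and 86.5 CPM in the footpad and 177, 70.2 and 51.6 CPM in the flank, so that the footpad tumors lay between the flank extremes. Its gap was -0.03, whereas its fitted difference was -0.23 ± 0.42 with an adjusted p of 0.766 in edgeR.

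The exonuclease gene Isg20, chosen after its values were seen, had the within-site order of Isg15, with 22.5, 3.12 and 12.8 CPM in the footpad and 21.7, 4.45 and 2.57 CPM in the flank. It spanned 7.22-fold within the footpad and 8.43-fold within the flank, and differed by 0.42 ± 0.89 between the sites. Xaf1, Ifi44, Rtp4 and Lgals3bp differed by -0.13 ± 0.52, 0.46 ± 0.44, -0.41 ± 0.53 and -0.44 ± 0.30. Ifit2, Herc6, Cmpk2 and Ifi35 were the only members whose tumors did not overlap between the sites, 10.8% of the 37, where 32.5% of all tested genes did not overlap and 15.0% did so with the footpad lower.

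**Figure D4:**
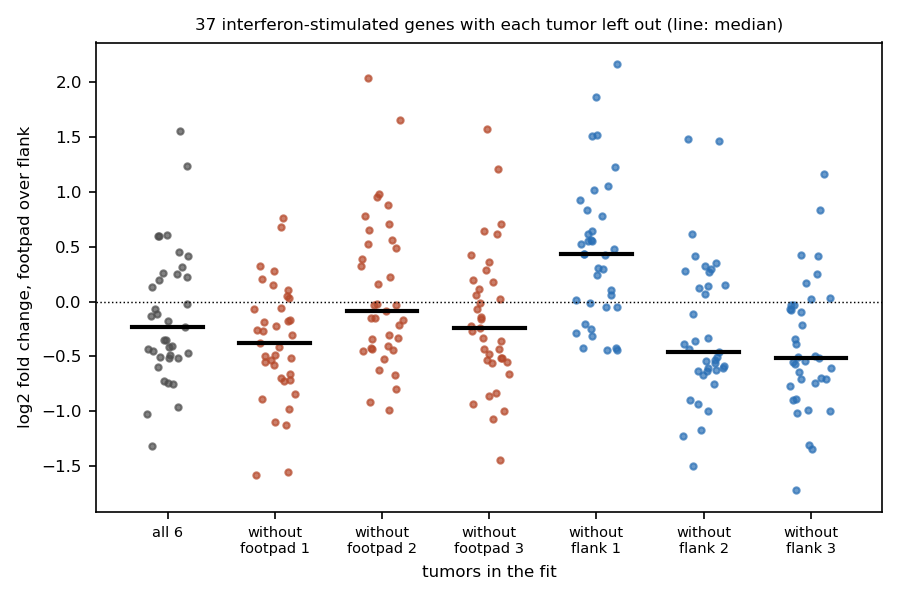
Fitted difference of each member between footpad and flank (log2) with all 6 tumors and after leaving out 1 tumor at a time, with the median of the members marked. The median ranges from -0.51 to 0.43, and the positive end is the fit without flank replicate 1.

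The sign of the median turned on a single tumor. Without flank replicate 1 the median member difference was 0.43, with 26 positive and 11 negative members, and with the other tumors left out in turn it lay down to -0.51. Across the 6 fits that left out a tumor, 18 members changed direction in at least 1, and 13 of them did so without flank replicate 1. No member passed an adjusted p of 0.05 in edgeR in these fits, in which 0 to 987 of all tested genes did, against 838 with all 6 tumors. Members without overlap between the sites numbered 4 to 11 in these comparisons of 2 tumors with 3, in which 38.6% to 47.7% of all tested genes did not overlap. The members counted 5, 7 and 5 without footpad replicates 1, 2 and 3, against 38.6%, 47.7% and 38.6% of all tested genes, and 4 and 9 without flank replicates 2 and 3, against 43.4% and 39.1%. Leaving out flank replicate 1 gave the 11 members, 29.7% of the 37, against 45.7% of all tested genes.

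The other genes of the pathway were examined in the same fit. Interferon ligands were almost absent from the libraries. Of 21 ligand genes, 15 had no read in any tumor, and the whole list drew 94 reads over the 6 libraries. Ifnb1, the interferon-beta gene, had 2 reads in footpad replicate 3 and none elsewhere, which allows up to 0.0437 to 0.0673 CPM in a library without reads, for counting error only. Only Ifnz passed the filter, with a difference of 0.41 ± 0.61 and an adjusted p of 0.709 in edgeR.

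Of 8 receptor and signaling genes, 0 passed. Ifnar1 had 81.2, 89.1 and 93.6 CPM in the footpad and 84.0, 90.2 and 78.2 CPM in the flank, a difference of 0.06 ± 0.12 with an adjusted p of 0.781 in edgeR. Ifnar2 differed by 0.41 ± 0.19, with an adjusted p of 0.217.

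Of 14 genes that sense nucleic acid upstream of interferon, 13 were tested and 0 passed. Cgas, the cytosolic DNA sensor, had 9.51, 9.60 and 8.41 CPM in the footpad and 9.02, 11.7 and 7.80 CPM in the flank, and differed by -0.05 ± 0.21 with an adjusted p of 0.910 in edgeR. Tmem173, encoding its partner STING, had 20.9, 21.0 and 23.3 CPM in the footpad and 20.3, 19.0 and 17.4 CPM in the flank, and differed by 0.20 ± 0.14 with an adjusted p of 0.404. In neither gene did flank replicate 1 stand above all other tumors. Over the list it was the highest tumor in 3 of the 13 tested genes (23.1%), against 23.9% of all tested genes. Of the 13 tested genes, Tlr7 had the largest positive difference, 1.77 ± 0.71 with an adjusted p of 0.177, and Irf3 the largest negative, -0.50 ± 0.20 with an adjusted p of 0.178. Tlr9, the gene not tested, had 30, 9 and 12 reads in the footpad tumors and 0 in each flank tumor.

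Of the 5 brakes on interferon signaling, 1 passed, where 3.76% of all tested genes did. Tumors of the sites did not overlap in 4 of the 5, 3 higher and 1 lower in the footpad, against 32.5% of all tested genes. Ptpn6, encoding the phosphatase SHP-1, fell in the footpad, at 21.2, 12.3 and 17.3 CPM against 40.9, 38.0 and 30.5 CPM in the flank, a difference of -1.10 ± 0.22 with an adjusted p of 0.0388 in edgeR. Its adjusted p rose to at most 0.142 when tumors were left out in turn and stayed under 0.05 only without footpad replicate 2 (0.0466). Ptpn6 is the gene of the 4 that was lower in the footpad. Socs1 had the largest positive difference of this list, 0.95 ± 0.49 with an adjusted p of 0.270.

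Genes that respond mainly to interferon-gamma, the type II interferon, gave 0 calls of 11 tested, and Ifng itself had no read in any tumor. Their highest tumor was flank replicate 2 in 7 of 11 genes, not flank replicate 1. Cxcl11, a chemokine, had the largest negative difference, -1.97 ± 0.54 with an adjusted p of 0.0765 in edgeR, and Cd274, encoding PD-L1, the largest positive, 0.95 ± 0.39 with an adjusted p of 0.181.

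A further list of 30 interferon-stimulated genes outside the 37 had 1 call in edgeR, where 3.76% of all tested genes were called. Ifi27l2a rose in the footpad, at 9.18, 9.38 and 9.04 CPM against 4.40, 3.83 and 3.98 CPM in the flank, a difference of 1.18 ± 0.20 with an adjusted p of 0.0255 in edgeR. With tumors left out in turn its adjusted p was at most 0.120 and stayed under 0.05 only without footpad replicate 2 (0.0390) or flank replicate 1 (0.0432). The other 29 did not pass in edgeR, the median difference of the list was -0.01, and 15 were positive and 15 negative. At an unadjusted p under 0.05 in edgeR, 6 were higher and 2 lower in the footpad, 26.7% of the list against 25.3% of all tested genes. DESeq2 passed 7 of the 30 at an adjusted p of 0.05 with a fold of 2 or more, against 8.75% of all tested genes. Slfn1 had the largest positive difference, 3.33 ± 1.03 with an adjusted p of 0.1003, and Trim30d the largest negative, -1.83 ± 1.20 with an adjusted p of 0.381. The order of tumors recurred in this list, with flank replicate 1 the highest flank tumor in 23 of 30 genes, flank replicate 3 the lowest in 26 and footpad replicate 2 the lowest footpad tumor in 21. The lists share the tumors with the members, so these counts are not separate evidence.

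**Figure D5:**
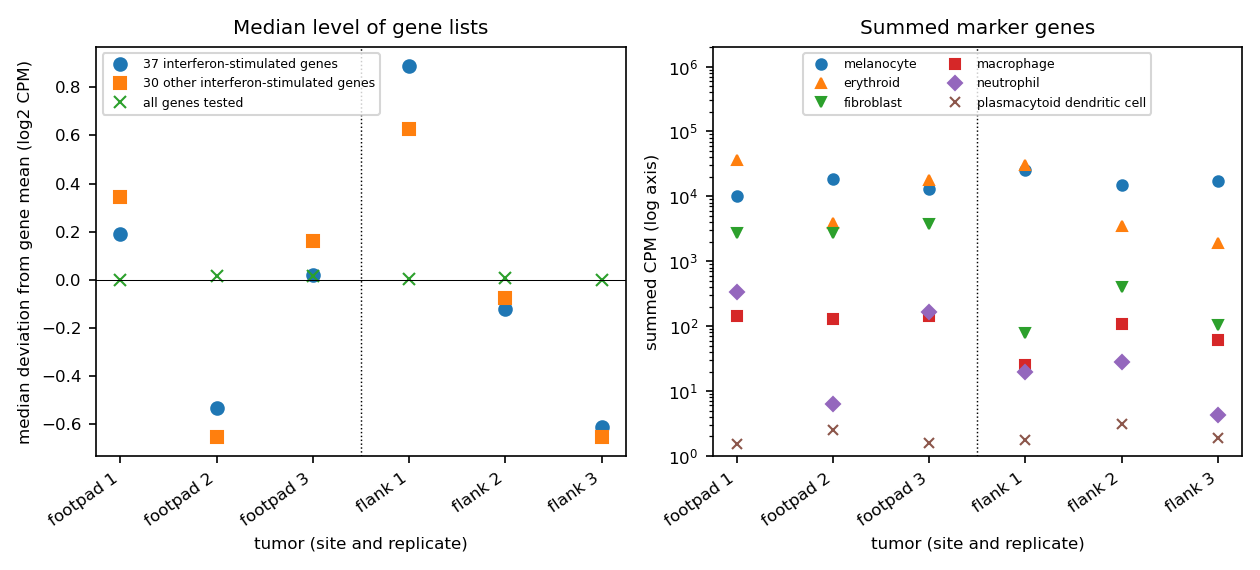
Left, median deviation from each gene's mean over the tumors (log2 CPM) in each tumor, for the 37 members, the 30 further interferon-stimulated genes and all tested genes. Right, summed level of 6 marker lists in each tumor (CPM, logarithmic axis). The deviations of the 2 interferon lists and the erythroid sum are both high in footpad replicate 1 and flank replicate 1 and low in footpad replicate 2 and flank replicate 3. Their order over all 6 tumors differs. Footpad replicate 1 has the highest erythroid sum but a member deviation of 0.19, against 0.89 in flank replicate 1. Flank replicate 2 has a lower erythroid sum than footpad replicate 2 but a member deviation of -0.12 against -0.54. Plasmacytoid dendritic cell markers are low in all 6 tumors.

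The libraries differed in the markers of other cells they held. The sum of 5 erythroid genes, such as the hemoglobins, was 36235, 3948 and 17764 CPM in footpad replicates 1 to 3 and 30898, 3545 and 1924 CPM in flank replicates 1 to 3. Within each site this order, highest in replicate 1 of both sites and lowest in footpad replicate 2 and flank replicate 3, was shared by 22 of 37 members, against 6.64% of all tested genes, and by 10 of the 30 further interferon-stimulated genes. Ifit2, Herc6, Cmpk2, Ifi35 and Bst2 were among the 15 members without it. Neutrophil markers, 7 of 8 tested, summed to 337, 6.28 and 167 CPM in the footpad and 19.6, 28.5 and 4.22 CPM in the flank. Macrophage markers, all 8 tested, summed to 145, 129 and 141 CPM in the footpad and 25.0, 108 and 61.9 CPM in the flank, and were lowest in flank replicate 1, the tumor with the highest member levels. Keratinocyte markers, 5 of 7 tested, summed to 24.6, 513 and 5.98 CPM in the footpad and 0.103, 2.45 and 8.07 CPM in the flank. Skeletal muscle markers, all 6 tested, summed to 27.9, 467 and 5.43 CPM in the footpad and 8.24, 59.2 and 8.63 CPM in the flank. Both sums were highest in footpad replicate 2, the lowest footpad tumor in 32 of 37 members. Melanocyte markers summed to 10060, 18621 and 12921 CPM in the footpad and 25502, 14808 and 17064 CPM in the flank, highest in flank replicate 1. Endothelial markers, all 7 tested, summed to 185, 123 and 195 CPM in the footpad and 64.9, 87.9 and 76.9 CPM in the flank. Fibroblast markers summed to 77.8, 404 and 103 CPM in the flank. Both of the latter sums were lowest in flank replicate 1.

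Plasmacytoid dendritic cells are the immune cells best known for type I interferon secretion. Their 5 markers summed to 1.53 to 2.48 CPM in the footpad and 1.78 to 3.10 CPM in the flank. NK cell markers, 0 of 7 tested, summed to 0.155 to 0.481 CPM over all tumors. T cell markers, 1 of 7 tested, summed to 0.364 to 1.76 CPM over all tumors. The part of melanocyte, fibroblast, endothelial, erythroid, neutrophil, macrophage, keratinocyte or skeletal muscle RNA in the member levels was not tested.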

How the data were processed

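Total RNA of 6 tumors was sequenced from stranded libraries. The authors trimmed reads with Trimmomatic, checked them with FastQC 0.11.7 and aligned them to mm10 with HISAT2 2.1.0, per the submitters' processing notes and the study's methods. The deposited values were raw read counts per gene in one matrix and, in a file per tumor, FPKM set by the authors. The counting program and its treatment of reads shared by genes are not given in the sources used here. Counts were tested with edgeR 4.0.16 in R 4.3.3 (TMM scaling, filterByExpr defaults, glmQLFit and glmQLFTest, footpad minus flank, no covariate), with Benjamini-Hochberg adjustment over 17210 genes. A call needed an adjusted p under 0.05 and a fold of 2 or more. The fit was tested on simulated counts. Spread was the SD of log2 CPM (prior count 1), pooled over the sites. FPKM served to compare levels between genes and in limma 3.58.1 alternatives. DESeq2 1.42.0, other scalings and filters, a replicate block and leaving out each tumor were further alternatives. Values in every tumor were given for the most abundant member of each role group, the 5 largest differences in each direction, and the 3 largest and 3 smallest differences relative to spread. From other lists, genes past the test, the largest difference each way, and Ifnb1, Ifnar1, Ifnar2, Cgas and Tmem173 were named, as was Tlr9, the sensing gene not tested. A further gene of that rule is not reported here. The members and lists were chosen with earlier results of these data known. Gene and promoter sequences came from RefSeq GRCm38.p6 and transcripts from GENCODE. Limits set from read counts cover counting error only.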

Additional observations from a re-analysis of the deposited data

How the results depend on the processing

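No member met both thresholds under any alternative, and 19 of 37 kept their direction under all of them. DESeq2 passed 2 members at an adjusted p of 0.05, both lower in the footpad. With a fold of 2 as well, it passed 1 gene of the nucleic acid sensing list, 1 interferon-gamma responsive gene and 7 of the other interferon-stimulated genes. Over all tested genes, 8.75% passed in DESeq2 at these thresholds. By the same 2 thresholds, a minimum of 10 counts in every tumor passed 1 sensing gene and 2 other interferon-stimulated genes and turned Parp12 to 0.0028, and limma on log2(FPKM + 0.1) passed 2 of the latter and, like limma on log2(FPKM + 1), 0 members. Mx2, Isg15, Parp12 and Xaf1 turned positive with limma, at 0.060, 0.087, 0.033 and 0.24 with a pseudocount of 0.1 and at 0.013, 0.080, 0.030 and 0.19 with 1. With log2(FPKM + 1), footpad replicate 3 was the highest tumor for 4 members and flank replicate 2 for 1. The replicate block gave 0 calls among all tested genes, so 0 brakes and 0 other interferon-stimulated genes, and Mx2, Isg15, Parp12 and Xaf1 were 0.072, 0.057, 0.037 and 0.22. Same-numbered tumors had deviation correlations of 0.0544, -0.0965 and -0.115 and did not each correlate best with their own number, so the numbers were not taken as a pairing, and the cause of the lost calls was not tested. Leaving out 1 tumor at a time, edgeR passed 0 to 5 other interferon-stimulated genes and 0 to 1 brakes at an adjusted p of 0.05 with a fold of 2, the members' median difference ranged from -0.51 to 0.43, members without overlap from 4 to 11 (all tested genes 38.6% to 47.7%, since 2 tumors were compared with 3), and the median difference relative to the SD from 0.44 to 1.05 (all tested genes 1.14 to 1.44). The members that turned ranged, in log2, from -0.39 to 0.31 (Ifih1), -0.17 to 0.62 (Stat2), -0.57 to 0.11 (Irf9), -0.19 to 0.92 (Irf7), -0.63 to 0.064 (Oas1a), -1.56 to 0.55 (Oas2), -0.89 to 0.42 (Oasl2), -0.064 to 0.55 (Mx1), -0.34 to 0.64 (Mx2), -0.71 to 1.23 (Isg15), -0.90 to 0.43 (Usp18), -0.21 to 0.30 (Parp12), -0.059 to 0.56 (Parp14), -0.27 to 1.86 (Isg20), -0.51 to 0.83 (Xaf1), -0.77 to 0.44 (Rtp4), -0.55 to 0.48 (Samd9l) and -0.64 to 0.013 (Lgals3bp). Each site had 3 tumors, and the lowest count of a member was 28, so low members such as Zbp1 also carry counting error.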
